A study of Mus musculus with 2 samples.

Results

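FGF and HGF signaling genes were described here as 10 of the 27998 genes in the count matrices. They are 4 ligands made by mesenchyme (Fgf2, Fgf7, Fgf10 and Hgf), 2 receptors (Fgfr2 and Met) and 4 feedback genes of the ERK pathway (Spry1, Spry2, Spry4 and Dusp6). They were chosen by gene symbol for their role in growth factor exchange between stroma and alveolar epithelium, with earlier results of these data known. All 10 symbols were found once in each matrix.

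The study asked how IL-1β changes alveolar type 2 (AT2) cells, the surfactant-making cells of the lung that also renew the gas-exchanging type 1 (AT1) cells. AT2 cells were sorted by their Tomato label from tamoxifen-treated SPC-CreERT2;R26R-tdTomato mice on a C57BL/6 background, grown into organoids in Matrigel beside lung stromal cells from culture, and sequenced by droplet single-cell RNA sequencing that reads the 3′ end of transcripts. The control library came from organoids given PBS and the IL-1b library from organoids given IL-1β. Both used AT2 cells of the same label and the same kind of stroma. Whether they shared a sort of AT2 cells or a stromal preparation was not settled. The Tomato label follows the Sftpc promoter that drives the Cre enzyme, so it marks AT2 cells and their descendants. The stromal cells were depleted of cells bearing CD31, EpCAM and CD45 before culture, and were not lineage-labeled. The sources name doses of 20 and of 10 ng/mL IL-1β and culture times of 2 weeks and of day 21, and which of these applied to the sequenced organoids was not settled. Mice were 6 to 10 weeks old in most experiments of the study. Each condition was 1 library, so no test between the conditions was possible, and no p-value is given.

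Fibroblast growth factors are secreted proteins that bind FGF receptors together with heparan sulfate. In the lung, Fgf7 and Fgf10 come from mesenchymal cells and act on the epithelial form of Fgfr2, and Hgf, also of mesenchymal origin, acts on the epithelial receptor Met. Both receptors activate the kinase ERK, and ERK induces its own brakes, among them the Sprouty proteins, which dampen receptor signaling, and Dusp6, a phosphatase that inactivates ERK.

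The control library held 2101 cell barcodes and 33965848 unique molecules (UMIs), and the IL-1b library 3066 barcodes and 41220175 UMIs. Median depth was 14613 and 11496.5 UMIs per cell. Between the libraries, 11 barcodes were shared. Clustering with marker genes split the cells kept into 1284 epithelial and 793 stromal cells of the control library and 2583 epithelial and 475 stromal cells of the IL-1b library. A class was named from its markers, and these rebuilt names may differ from the study's. AT2-lineage cells (AT2, primed AT2 and cycling AT2 together) numbered 857 and 1214, and AT1-like cells 216 and 435. DATP-like cells, the damage-associated transient state that expresses Cldn4 and Krt8, numbered 0 and 267. Clusters whose markers named no class held 16.4% of control and 25.5% of IL-1b epithelial cells. The classes of both libraries lay in different clusters. AT2-lineage cells were mostly clusters 1 and 3 in the control library and clusters 6, 7 and 9 in the IL-1b library, and AT1-like cells were mostly cluster 2 and cluster 5. Cluster 1, named AT2-like, held 768 control and 0 IL-1b cells, and cluster 3, named cycling AT2-like, 85 and 4. Clusters 6, 7 and 9, named primed AT2-like, held 435, 548 and 227 IL-1b cells and 0, 4 and 0 control cells. Ratios between the libraries in AT2-lineage cells thus set mostly primed AT2-like beside mostly AT2-like cells. The part of this in those ratios was not tested. Levels below are CPM, the UMIs of a gene summed over the cells of a class for each 1000000 UMIs of that class. Brackets give exact Poisson 95% intervals for a CPM and exact binomial 95% intervals for a ratio of CPM. They cover counting error only, not the spread between cultures. A gene was called higher or lower when the ratio was 2-fold or more and the summed UMIs of both sides were at least 50.

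In the GRCm38 assembly, with GENCODE M21 gene models, the ligand genes lie at chr3:37348346-37410108 (Fgf2), chr2:126034658-126091185 (Fgf7), chr13:118669791-118792115 (Fgf10) and chr5:16553495-16620152 (Hgf), all on the plus strand. Met lies at chr6:17463800-17573980 on the plus strand and Fgfr2 at chr7:130162451-133123350 on the minus strand. Spry1 is at chr3:37639947-37644598 and Dusp6 at chr10:99263231-99267489, both on the plus strand, and Spry2 at chr14:105891947-105896819 on the minus strand. All of them are protein-coding genes. The 3′ reads do not separate the epithelial and mesenchymal splice forms of Fgfr2, so its values below are the sum of both.

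Promoter windows are given for genes on which the stromal comparison turns. These are Hgf, the member called higher with IL-1β, Spry1 and Spry2, called lower together with Spry4, which is not shown, and Dusp6, the feedback gene that was not called. Each is the 250 bases before the RefSeq start in GRCm38.p6, read 5′ to 3′ on the strand of the gene, with capitals marking a CCAAT box (CCAAT, or ATTGG on the other strand). The windows are chr5:16553245-16553494 for Hgf, chr3:37639697-37639946 for Spry1, chr14:105896820-105897069 on the minus strand for Spry2 and chr10:99262981-99263230 for Dusp6.
Hgf: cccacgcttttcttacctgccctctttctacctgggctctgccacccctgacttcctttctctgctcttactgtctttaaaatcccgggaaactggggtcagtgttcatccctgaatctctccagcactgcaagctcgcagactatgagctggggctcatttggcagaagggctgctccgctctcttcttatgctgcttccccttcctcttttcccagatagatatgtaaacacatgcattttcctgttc
Spry1: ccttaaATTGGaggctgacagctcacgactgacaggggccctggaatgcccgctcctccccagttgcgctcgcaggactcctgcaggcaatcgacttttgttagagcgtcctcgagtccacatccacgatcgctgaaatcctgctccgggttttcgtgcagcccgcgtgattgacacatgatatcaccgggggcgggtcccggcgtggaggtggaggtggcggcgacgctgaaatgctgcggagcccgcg
Spry2: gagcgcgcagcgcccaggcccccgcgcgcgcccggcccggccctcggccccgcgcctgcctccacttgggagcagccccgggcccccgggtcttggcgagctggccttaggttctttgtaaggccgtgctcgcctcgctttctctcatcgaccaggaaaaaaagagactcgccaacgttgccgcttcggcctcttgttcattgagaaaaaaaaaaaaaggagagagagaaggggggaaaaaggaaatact
Dusp6: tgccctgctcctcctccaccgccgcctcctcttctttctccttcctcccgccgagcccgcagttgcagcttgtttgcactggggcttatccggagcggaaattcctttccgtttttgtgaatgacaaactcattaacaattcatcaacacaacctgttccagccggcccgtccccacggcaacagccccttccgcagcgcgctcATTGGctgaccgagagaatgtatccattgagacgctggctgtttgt
On both strands, 6 motifs were searched for, and their shares are of all 32851 RefSeq windows of this length. The letters TGACGTCA, bound by CREB, were in 1.55% of windows. The letters CCGGAAGT, bound by ETS factors, were in 2.88%. The AP-1 motif, TGA and TCA around any single base, was in 6.75%. The NF-kB motif was in 1.41%, the TATA box (TATAAA) in 12.4% and the CCAAT box in 33.9%. No searched motif overlapped another in the windows shown. The Hgf and Spry2 windows shown held none of the 6, and those of Spry1 and Dusp6 held CCAAT on the reverse strand, starting 244 and 46 bases before the start. Among the other windows of the members, the AP-1 letters occurred in that of Met, 54 bases before its start, and CCAAT in that of Fgf7, 53 bases before its start. GC content was 50.8% for Hgf, 62.4% for both Spry1 and Spry2 and 56.4% for Dusp6.

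The 4 ligands were genes of the stroma in both libraries. Fgf7, the keratinocyte growth factor, was at 268 CPM (259 to 277) in control stromal cells and 7.84 CPM (6.64 to 9.20) in control epithelial cells, a ratio of 34.2 (29.0 to 40.5). In the IL-1b library the same levels were 213 and 7.13 CPM, a ratio of 29.8 (25.9 to 34.4). Fgf10, the ligand needed for lung budding, was at 62.7 CPM in control stroma against 1.62 CPM in control epithelium, and at 54.1 against 1.57 CPM with IL-1β. Its stromal over epithelial ratios were 38.7 and 34.4. Fgf2, a broadly acting FGF without a classical secretion signal, was at 127 CPM in control stroma and 3.29 CPM in epithelium, a ratio of 38.5 (29.9 to 50.3). With IL-1β it was at 65.1 and 3.70 CPM, a ratio of 17.6 (14.4 to 21.7), the one ligand whose ratio intervals in the libraries did not overlap. Hgf was at 17.7 CPM in control stroma and 0.418 CPM in epithelium, and at 71.1 and 1.54 CPM with IL-1β. Its ratios were 42.4 (21.2 to 99.4) and 46.1 (34.3 to 63.1).

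Fgfr2 and Met were genes of the epithelium. Fgfr2 was at 198 CPM in control epithelial and 39.4 CPM in control stromal cells, 5.02-fold higher in the epithelium. In the IL-1b library it was at 158 and 23.9 CPM, 6.60-fold higher. Met was at 69.8 CPM in epithelium and 6.73 CPM in stroma of the control library, a 10.4-fold difference, and at 69.3 and 8.78 CPM with IL-1β, a 7.89-fold difference. Of the feedback genes, Spry4 was the stromal one, with 19.7 CPM in control stroma against 2.04 in epithelium and 8.14 against 2.73 CPM with IL-1β. Spry1, Spry2 and Dusp6 differed by less than 2-fold between the compartments in both libraries. In all, 5 members were called higher and 2 lower in stroma than in epithelium in each library. Of all genes, 21.2% were called higher and 15.7% lower in the control library (36.9% in either direction), and 14.0% and 23.0% in the IL-1b library (37.0%). The median log2 ratio of all genes was 0.17 and -0.24 in these comparisons, and centring on it left the same 7 members called in each.

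**Figure D1:**
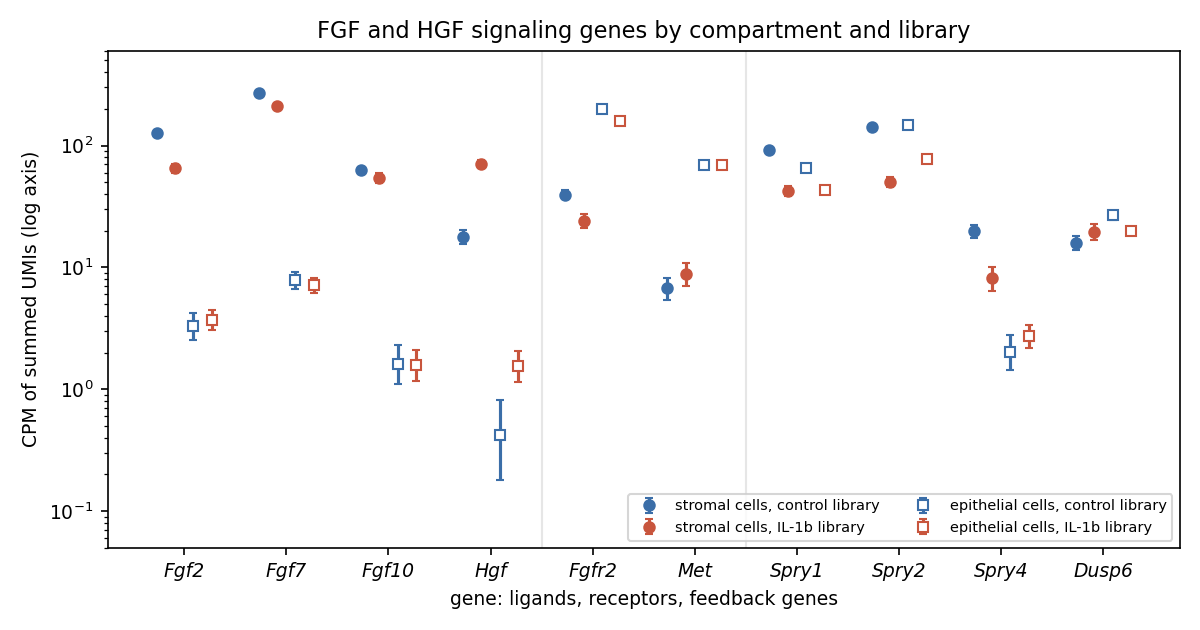
CPM of each of the 10 genes (log axis) in stromal cells (filled circles) and epithelial cells (open squares) of the control (blue) and IL-1b (red) libraries, with exact Poisson 95% intervals, from 1 library per condition. The 4 ligands and Spry4 sit higher in stroma, Fgfr2 and Met sit higher in epithelium, and stromal Hgf stands at 71.1 CPM with IL-1β against 17.7 CPM in the control.

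Droplets can carry free RNA or a second cell, and the level of stromal markers in epithelial cells gives the sum of both. Among epithelial cells, 346 of 1284 in the control and 377 of 2583 in the IL-1b library held UMIs of both marker pairs, a larger share in the control. The epithelial pair was Epcam and Cdh1, and the stromal pair Col1a2 and Col3a1. Free RNA and doublets were not told apart. The 6 stromal markers (Col1a1, Col1a2, Col3a1, Pdgfra, Pdgfrb and Dcn) stood in epithelial cells at 1.32% to 2.54% of their stromal CPM in the control library and at 1.66% to 2.43% in the IL-1b library. Epithelial Hgf, at 2.36% and 2.17% of its stromal level, lay within these ranges and could not be told from RNA of stromal cells. Fgf10 stood at 2.59% and 2.91%, and Fgf7 at 2.93% and 3.36%, a little above the marker ranges. Fgf2 stood at 2.60% in the control library and at 5.67% in the IL-1b library. In the other direction, the 5 epithelial markers (Epcam, Cdh1, Krt18, Cldn7 and Nkx2-1) stood in stromal cells at 4.58% to 5.55% of their epithelial CPM in the control and at 5.56% to 7.14% with IL-1β. Stromal Fgfr2, at 19.9% and 15.1% of its epithelial level, and stromal Met, at 9.63% and 12.7%, were above these ranges.

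**Figure D2:**
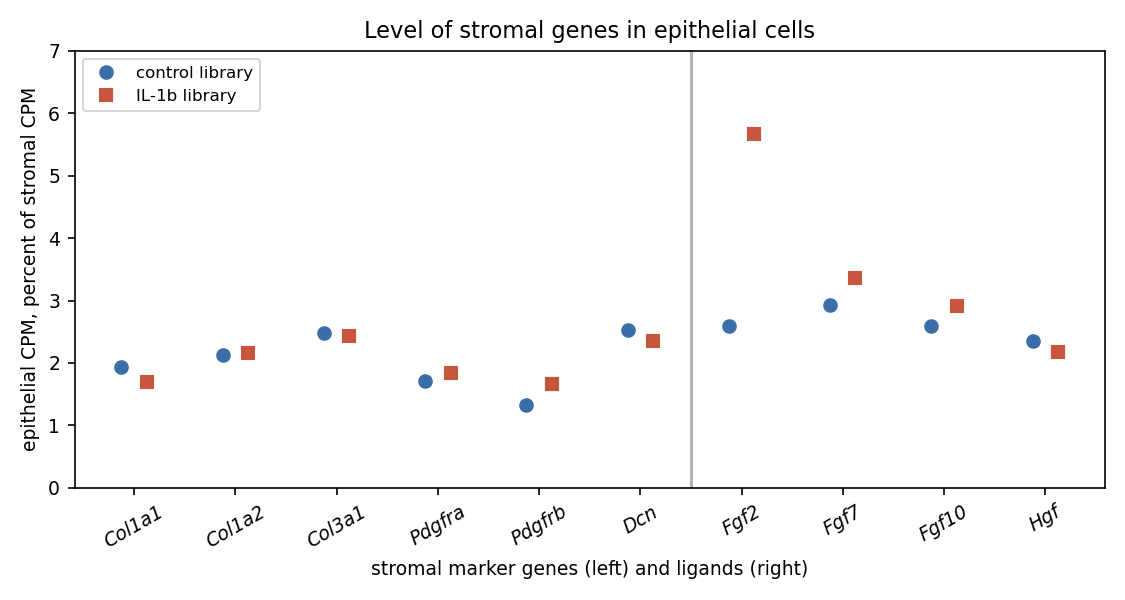
Epithelial CPM as a percent of stromal CPM for the 6 stromal marker genes (left of the line) and the 4 ligands (right) in the control (blue circles) and IL-1b (red squares) libraries, 1 library per condition. Hgf lies among the markers in both libraries, while Fgf2 of the IL-1b library stands apart at 5.67%.

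In stromal cells Hgf was the only member called higher with IL-1β. Its level was 71.1 CPM (65.8 to 76.6, 672 UMIs) against 17.7 CPM (15.6 to 20.1, 240 UMIs), a ratio of 4.01 (3.45 to 4.66). After each cell was thinned to 4600 UMIs, 143 of 475 IL-1b stromal cells (30.1%) and 71 of 793 control stromal cells (8.95%) held an Hgf UMI. Without thinning the shares were 61.1% and 22.3%, at median depths of 14849 and 15735 UMIs. In epithelial cells the thinned shares were 0.465% and 0.312%, at median depths of 11293 and 13921.5 UMIs. The stromal shares were above these epithelial shares in both libraries, and the IL-1b stromal share was above the control stromal share.

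The other ligands were not called in stroma. Fgf2 was at 65.1 CPM (60.1 to 70.5) with IL-1β against 127 CPM (121 to 133), a ratio of 0.514 (0.468 to 0.564) that lay just short of 2-fold. Its log2 ratio of -0.96 passed 2-fold, at -1.01, without the cell filter and, at -1.004, with totals that leave out surfactant, mitochondrial and ribosomal genes. Fgf7 had a ratio of 0.793 (0.751 to 0.838) and Fgf10 one of 0.864 (0.773 to 0.965). Hgf alone of the 4 ligands was thus called higher in IL-1b stroma. The median log2 ratio of the 11358 genes tested in stroma was -0.33, and relative to that median Hgf stood at 2.33, Fgf2 at -0.63, Fgf7 at -0.01 and Fgf10 at 0.12 on the log2 scale, so that the direction of Fgf10 flips with the scaling.

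Summed over all stromal cells, the 3 Sprouty genes were lower with IL-1β. Spry2 fell from 142 CPM (136 to 149) to 50.4 CPM (46.0 to 55.2), a ratio of 0.355 (0.320 to 0.392). Spry4 fell from 19.7 to 8.14 CPM, a ratio of 0.413 (0.316 to 0.534), and Spry1 from 92.0 to 42.6 CPM, a ratio of 0.463 (0.413 to 0.519). Relative to the median gene, the log2 ratios of Spry2, Spry4 and Spry1 were -1.17, -0.95 and -0.78, so that on this scaling only Spry2 of the 3 remained past 2-fold. Dusp6 did not share this pattern, with 19.6 CPM with IL-1β against 16.0 CPM and a ratio of 1.23, whose interval began at 1.00. Its log2 ratio of 0.29 became -0.13 at a clustering resolution of 2.0. In sum 1 member was called higher and 3 lower of 10 tested, against 4.23% of all genes called higher and 11.7% called lower. The members were chosen with earlier results of these data known, and the paper had reported higher Hgf in IL-1β-treated stromal cells. These shares are therefore no test of the members as a set. The members had a median log2 ratio of -0.53 beside -0.33 for all genes.

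The stromal receptors were not called. Fgfr2 was at 23.9 CPM with IL-1β against 39.4 CPM, a ratio of 0.607 (0.517 to 0.710), and Met at 8.78 against 6.73 CPM, a ratio of 1.31 (0.957 to 1.78). A stromal cluster of 16 control and 23 IL-1b cells also carried epithelial and AT2 markers. In its IL-1b cells Fgfr2 was at 142 CPM and Met at 43.9 CPM. Without this cluster, an alternative chosen after seeing the data, the log2 ratio of Fgfr2 was -0.96 in place of -0.72 and that of Hgf 2.00, and the same number of members, 4, was called.

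Stromal clusters separated almost wholly by library, so the levels by cluster are given as they stand. In the control library Hgf was at 26.4 CPM in cluster 1 (287 cells led by Dio2, Frmd5 and Fgl2), at 19.8 CPM in cluster 3 (98 cells led by Cxcl14 and Myoc), at 18.8 CPM in cluster 0 (156 cells led by Ptn, Cdkn1c and Ccl11) and at 16.4 CPM in cluster 9 (69 cells led by Nkd2 and Col11a1). Its intervals in these 4 clusters overlapped. It was at 14.2 CPM in cluster 7, whose 38 cells were led by the interferon-induced genes Isg15 and Ifit3. The contractile-stromal-like clusters 5 and 6, which express Acta2, had the lowest values. Cluster 6 held 28 cells with a median of 6532.5 UMIs. Among control clusters of 20 or more cells it was also lowest for every other member except Fgf10. Hgf was at 3.80 CPM in cluster 5 and had 0 of 286015 UMIs in cluster 6. That count of 0 allows up to 12.9 CPM, above the lower limits of Hgf in clusters 7 (6.49) and 9 (10.4).

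In the IL-1b library Hgf was at 119 CPM (102 to 137) in cluster 11, whose 76 cells were led by Mmp10, Il11 and Areg. In cluster 10, 189 cells led by Vnn3, Mmp3 and Spp1 with a median of 7780 UMIs, it was at 102 CPM (88.0 to 118). Cluster 12, 165 cells led by Mt2, Ccl8 and Dcn with a median of 28899 UMIs, held 55.5 CPM (49.2 to 62.4) and supplied 42.0% of all stromal Hgf UMIs of that library. Clusters 11 and 10 did not differ beyond their intervals, and both were above cluster 12. Each of these 3 clusters was above every control cluster.

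Cluster 5 was the one stromal cluster with at least 20 cells of each library. In it Hgf was at 4.81 CPM in 21 IL-1b cells (3 UMIs) and 3.80 CPM in 87 control cells (8 UMIs), a ratio of 1.26 (0.216 to 5.27) that the count cannot tell from 1 or from the ratio of all stromal cells. Outside this cluster the ratio was 3.73 (3.21 to 4.35). Spry2 in cluster 5 was at 96.2 against 161 CPM, a ratio of 0.597 (0.446 to 0.787), and Fgf2 at 60.9 against 167 CPM, a ratio of 0.364 (0.253 to 0.510). Spry1 had a ratio of 0.635 (0.347 to 1.09) there and Dusp6 one of 0.947 (0.507 to 1.67), and both intervals included 1. Spry4, from 6 and 11 UMIs, had a ratio of 1.84 (0.559 to 5.43), on the other side of 1 from its ratio over all stromal cells but with an interval that included 1. Fgf7 and Fgf10 had ratios of 0.615 and 0.567 and Fgfr2 was at 9.62 against 38.5 CPM, each with an interval below 1, and Met had one of 0.887 (0.259 to 2.46). The higher Hgf level of IL-1b stroma thus came from clusters found almost wholly in that library, and a change of cells and a change within cells cannot be told apart.

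The FGF ligands were spread over the stroma in another way. Fgf10 was at 91.9 CPM in cluster 3 and 91.0 CPM in cluster 1 of the control library and at 13.5 CPM in cluster 9, and in the IL-1b library it ranged from 32.1 CPM in cluster 5 to 63.8 CPM in cluster 12. Fgf7 was highest in control cluster 5, at 412 CPM (385 to 441), and next in control cluster 1, at 322 CPM (305 to 340). In the IL-1b library Fgf7 was at 274 CPM in cluster 11 and 226 CPM in cluster 12 but at 136 CPM in cluster 10. Fgf2 ranged from 112 to 167 CPM over the control clusters other than cluster 6, where it was at 45.5 CPM, and from 43.9 to 83.4 CPM over the IL-1b clusters. Spry2 ran from 120 to 188 CPM over the same control clusters and from 44.5 to 96.2 CPM over the IL-1b clusters. These values did not overlap, but the intervals of control cluster 9 (103 to 140) and IL-1b cluster 5 (73.4 to 124) did. Cluster 6 of the control library was at 17.5 CPM. Spry1 reached 180 CPM in control cluster 9 and stood at 40.4 CPM in control cluster 5, inside the IL-1b range of 25.7 to 55.6 CPM. Spry4 values also overlapped between the libraries. It ran from 5.23 CPM in control cluster 5 to 29.1 CPM in control cluster 0, with 0 UMIs in cluster 6. In IL-1b cluster 11 it was at 21.2 CPM (14.6 to 29.7), 42.9% of the stromal Spry4 UMIs of that library. The other IL-1b clusters were at 4.13 to 10.3 CPM. Dusp6 was highest in IL-1b cluster 11, at 47.5 CPM, and at most 27.1 CPM in any control cluster.

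**Figure D3:**
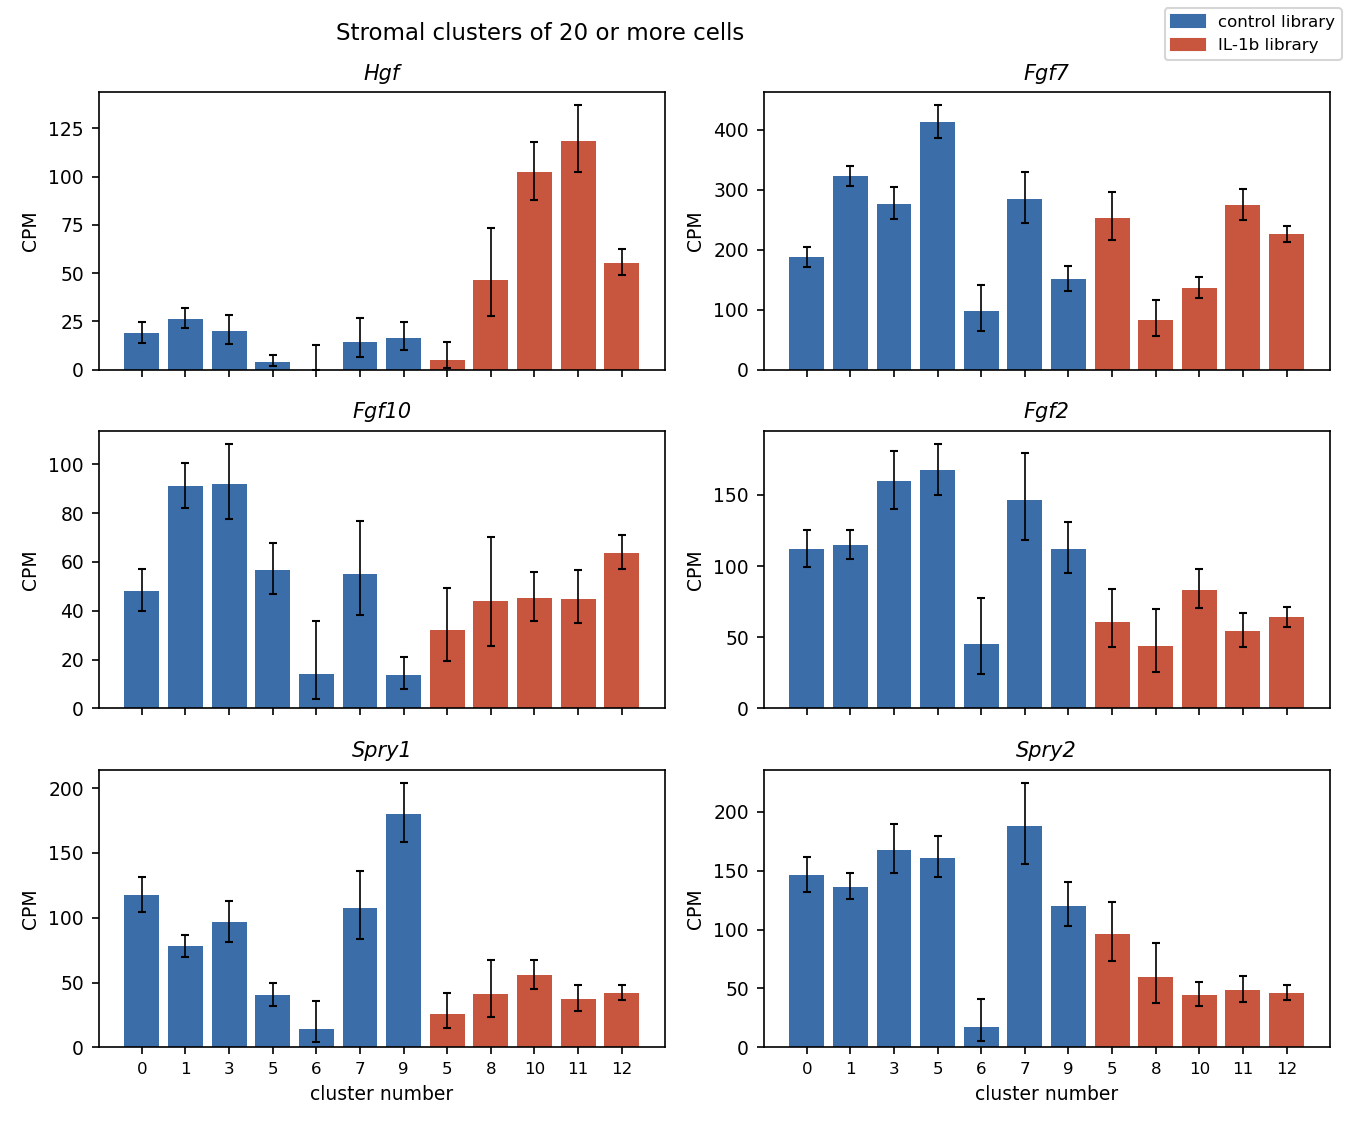
CPM of Hgf, Fgf7, Fgf10, Fgf2, Spry1 and Spry2 in each stromal cluster with 20 or more cells of the control (blue) and IL-1b (red) library, bars starting at 0 with exact Poisson 95% intervals. Hgf is at 55.5 to 119 CPM in IL-1b clusters 10, 11 and 12 and at most 26.4 CPM in a control cluster, while Fgf7 and Fgf10 overlap between the libraries.

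Ligands were also compared within single stromal cells after thinning. Of Hgf-positive cells, 66.2% held an Fgf7 UMI in the control library against 57.9% of Hgf-negative cells, and 54.5% against 49.1% in the IL-1b library. Fgf10 was found in 25.4% of Hgf-positive and 24.9% of Hgf-negative control cells, and in 23.8% and 20.2% of IL-1b cells. Fgf2 was found in 36.6% of Hgf-positive and 42.9% of Hgf-negative control cells, and in 30 of 143 Hgf-positive and 26.8% of Hgf-negative IL-1b cells. After thinning, Hgf UMIs were thus found in cells with and without a UMI of each FGF ligand. These differences in share were not tested. Without thinning, more stromal cells of both libraries held a UMI of each FGF ligand. A cell with no UMI after thinning may therefore still express the ligand, and these shares cannot show that Hgf-positive cells lack it. Over 18 cluster profiles of at least 50 cells, of which 8 were stromal, the genes with the log2(CPM + 1) pattern most like Hgf were Col6a3 (r = 0.974), Adgrb3 (r = 0.968) and Xylt1 (r = 0.966). Those most like Fgf10 were Rspo3 (r = 0.981), Fgf7 (r = 0.977) and Penk (r = 0.974), and those most like Fgfr2 were Gnpat (r = 0.968), Camsap3 (r = 0.965) and Hacd3 (r = 0.962). The profiles share 2 libraries and the split of stroma from epithelium, and the correlations are given as a description with no p.

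Markers of other cells moved with the library too. The endothelial markers Pecam1, Cdh5 and Cldn5 were at 7.19, 7.51 and 10.0 CPM in IL-1b stroma against 2.00, 0 and 0 CPM in control stroma, while Tek was at 0.317 and 0.148 CPM. The immune marker Ptprc was at 0 and 0.0739 CPM, and the 4 other immune markers ranged from 0.106 to 17.0 CPM with IL-1β and from 1.40 to 8.20 CPM in the control. All 4 mesothelial markers were under 1 CPM in both. The part of these cells in the stromal ratios was not tested. In epithelial cells, Cd68 was at 40.5 CPM with IL-1β against 6.85 CPM and Msln at 19.8 against 1.15 CPM, while the other immune, endothelial and mesothelial markers were at most 1.61 CPM with IL-1β and 5.12 CPM in the control. Their part in the epithelial ratios was not tested.

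Neither receptor was called with IL-1β over all epithelial cells or in AT2-lineage cells, but Fgfr2 was lower in both, with intervals below 1. The paper lists Fgfr2 among genes lowered in primed AT2 cells, measured by qPCR in organoid epithelium at an earlier day. Fgfr2 was at 158 CPM (153 to 162) with IL-1β against 198 CPM (192 to 204) over all epithelial cells, a ratio of 0.798 (0.764 to 0.832), and Met at 69.3 against 69.8 CPM, a ratio of 0.992 (0.926 to 1.06). In AT2-lineage cells Fgfr2 was at 195 against 228 CPM, a ratio of 0.857 (0.814 to 0.902), and Met at 75.4 against 82.4 CPM, a ratio of 0.914 (0.840 to 0.995). The shares of AT2-lineage cells with an Fgfr2 UMI after thinning were 59.1% and 61.5% (86.4% and 90.8% unthinned), and with a Met UMI 29.5% and 32.8% (57.7% and 65.2% unthinned), at median depths of 11898 and 14387 UMIs. Among stromal cells the thinned shares were 9.05% and 16.1% for Fgfr2 and 5.26% and 2.52% for Met.

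Of the feedback genes, Spry2 had the ratio farthest from 1 in AT2-lineage cells. It was at 84.6 CPM (80.1 to 89.4) with IL-1β against 160 CPM (153 to 167), a ratio of 0.528 (0.492 to 0.567). Spry1 was at 45.1 against 66.3 CPM, a ratio of 0.681, and Dusp6 at 19.5 against 30.3 CPM, a ratio of 0.643 (0.550 to 0.750). Spry4 was at 4.33 against 2.63 CPM, from 65 and 34 UMIs, a ratio of 1.65 (1.07 to 2.58). None of the 8 members with enough UMIs was called in AT2-lineage cells, where 6.74% of all genes were called higher and 5.27% lower, 12.0% in either direction. With totals that leave out surfactant, mitochondrial and ribosomal genes, the log2 ratio of Spry2 moved from -0.92 to -1.02 (-1.15 at a clustering resolution of 2.0), past 2-fold. Over all epithelial cells 1 member, Hgf, was called higher, against 7.23% of all genes, and none lower, against 4.62%. That call rests on 48 and 8 UMIs, at levels that could not be told from RNA of stromal cells.

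By epithelial cluster, the Spry2 values did not overlap between the libraries, at 115 to 163 CPM over 4 control clusters and 42.7 to 97.2 CPM over 7 IL-1b clusters. The intervals of control cluster 0 (103 to 129) and IL-1b cluster 9 (85.0 to 111) did overlap. Fgfr2 values overlapped between the libraries. They were lowest in the AT1-like clusters 2 (95.6 CPM, control) and 5 (87.0 CPM, IL-1b) and in the 34 cells of IL-1b cluster 8 led by Ccl20 (78.0 CPM). The unnamed cluster 0, 197 control cells led by Scgb1a1 and Crym, held 181 CPM of Fgfr2 and 65.8 CPM of Met. The unnamed cluster 4, 617 IL-1b cells led by Slc26a4, Cd14 and Cxcl5, held 157 CPM of Fgfr2 and 72.3 CPM of Met.

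**Figure D4:**
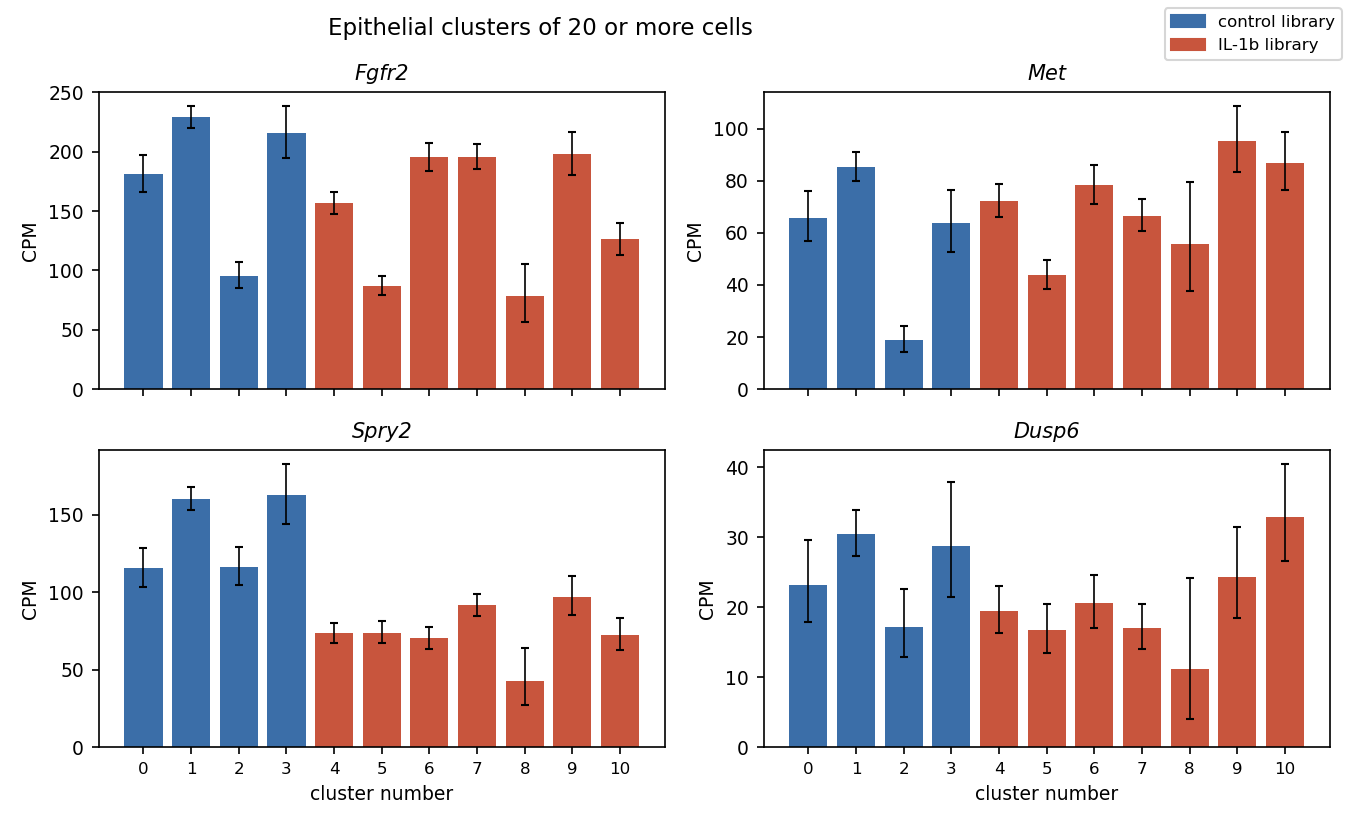
CPM of Fgfr2, Met, Spry2 and Dusp6 in each epithelial cluster with 20 or more cells of the control (blue) and IL-1b (red) library, bars starting at 0 with exact Poisson 95% intervals. Met is lowest in control AT1-like cluster 2 at 18.9 CPM, and Spry2 lies at 115 CPM or above in every control cluster and at 97.2 CPM or below in every IL-1b cluster.

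Both receptors were lower in AT1-like than in AT2-lineage cells of the control library. Fgfr2 was at 93.6 CPM (83.1 to 105) against 228 CPM, a ratio of 0.411 (0.363 to 0.464), and Met at 18.8 CPM (14.3 to 24.3) against 82.4 CPM, a ratio of 0.228 (0.172 to 0.297). After thinning, 5.09% of control AT1-like cells held a Met UMI against 32.8% of AT2-lineage cells, and 32.4% held an Fgfr2 UMI against 61.5%. Unthinned, the Met shares were 19.4% and 65.2% and the Fgfr2 shares 56.5% and 90.8%, at median depths of 11748 and 14387 UMIs. Dusp6 was at 16.8 against 30.3 CPM, a ratio of 0.556 (0.408 to 0.744), Spry2 had a ratio of 0.725 and Spry1 one of 1.14 (0.985 to 1.32). Thus 2 of 7 members tested were called lower and none higher, where 8.08% of all genes were lower and 19.1% higher. The median gene had a log2 ratio of 0.39, and relative to it Dusp6 was also past 2-fold, at -1.24.

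With IL-1β the AT1-like cells held more Met. Its level was 43.6 CPM (38.3 to 49.4, 246 UMIs) against 18.8 CPM (58 UMIs), a ratio of 2.32 (1.74 to 3.15), and 19.3% of cells held a UMI after thinning against 5.09% (38.6% against 19.4% unthinned, at median depths of 11495 and 11748 UMIs). The IL-1b AT1-like cells were mostly cluster 5, whose leading genes held the DATP markers AW112010 and Cldn4 beside the AT1 markers Akap5 and Hopx, and DATP-like cells held 87.0 CPM of Met. The part of this in the ratio was not tested. Met was the one member called of 6 tested in AT1-like cells, where 5.21% of all genes were called higher and 4.04% lower, 9.24% in either direction. The call depended on how cells were clustered: the log2 ratio was 1.22 here but 0.94 at a resolution of 0.5, 0.80 at a resolution of 2.0 and 0.77 with another random seed. Fgfr2 in the same cells was at 86.7 against 93.6 CPM, a ratio of 0.927 (0.800 to 1.08), Spry2 at 73.8 against 116 CPM, a ratio of 0.635 (0.550 to 0.733), and Dusp6 at 16.8 CPM in both.

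**Figure D5:**
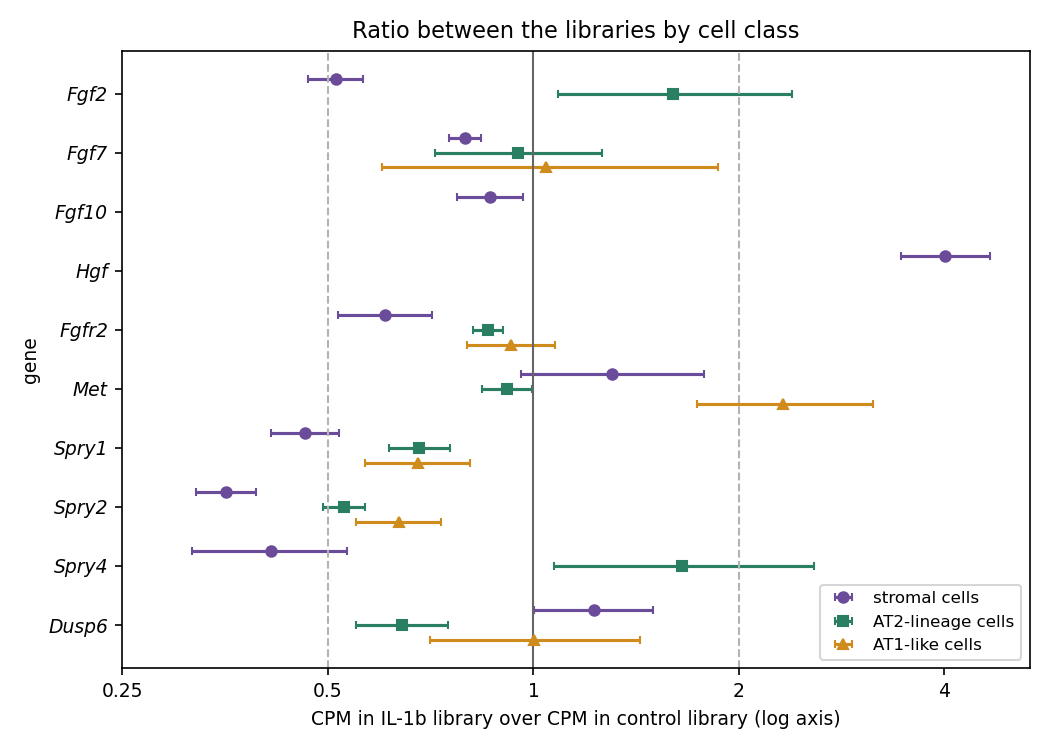
Ratio of CPM in the IL-1b library over the control library (log axis) for members with at least 50 UMIs in stromal (circles), AT2-lineage (squares) and AT1-like cells (triangles), with exact binomial 95% intervals and dashed lines at 2-fold, 1 library per condition. Stromal Hgf stands at 4.01 and AT1-like Met at 2.32, the Sprouty genes of stroma lie left of the lower 2-fold line, and all AT2-lineage points lie between the lines.

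DATP-like cells of the IL-1b library were set beside the AT2-lineage cells of the same library. Their Fgfr2 was at 126 CPM (113 to 140) against 195 CPM, a ratio of 0.646 (0.577 to 0.722), and their Met at 87.0 against 75.4 CPM, a ratio of 1.15 (1.00 to 1.33). Dusp6 was at 33.0 CPM (26.6 to 40.4) against 19.5 CPM, a ratio of 1.69 (1.32 to 2.15). Spry1 and Spry2 had ratios of 0.929 and 0.859. The 2 members called lower of 8 tested, beside 3.02% of all genes, were Fgf2 and Spry4, from only 7 and 6 UMIs in DATP-like cells, and their intervals (0.188 to 1.04 and 0.176 to 1.14) included 1. No member was called higher, beside 6.18% of all genes. With each library clustered separately, Fgfr2 (-1.23) and Dusp6 (1.02) passed 2-fold on the log2 scale in place of Fgf2 and Spry4. The log2 ratio of Fgfr2, -0.63 here, was -0.27 at a resolution of 0.5, so that its level in DATP-like cells depended on how cells were clustered. The Fgfr2 level was lower in DATP-like than in AT2-lineage cells under each alternative. The log2 ratio of Dusp6, 0.76 here, was 0.19 at a resolution of 2.0, so that its size also depended on the clustering. That of Met, 0.21 here, ranged from -0.16 to 0.34 over 10 alternatives and kept its sign in 7 of them.

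Other genes of the pathway were counted from lists. Of 9 other ligands 2 had enough UMIs in the stromal comparison, Fgf1 and Fgf18, and Fgf1 was called lower with IL-1β, at 1.80 against 6.43 CPM. Of all genes, 11.7% were called lower in stroma. Fgf1 was at 65.9 CPM in control epithelium, and its stromal over epithelial ratio there was 0.0975 (0.0776 to 0.121). Epithelial markers stood in control stroma at 4.58% to 5.55% of their epithelial level. The part of epithelial RNA in the stromal Fgf1 call was not tested. In the control library Fgf1 was higher in AT1-like than in AT2-lineage cells, at 172 against 44.3 CPM. In that comparison 2 of 2 ligands tested were called higher, beside 19.1% of all genes. With IL-1β it was called lower in AT2-lineage cells (16.8 against 44.3 CPM) and in AT1-like cells (52.8 against 172 CPM). Fgf18 was called lower in both classes as well, at 1.27 against 2.55 CPM and 3.90 against 23.0 CPM. Of all genes, 5.27% were called lower in AT2-lineage and 4.04% in AT1-like cells, and the other 7 ligands of the list had too few UMIs to be read.

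Of 12 other receptors and co-receptors 10 were tested in stroma, with 1 called higher and 3 lower, beside 4.23% and 11.7% of all genes. Sdc1, a syndecan that carries heparan sulfate, was at 289 CPM with IL-1β against 76.1 CPM, a ratio of 3.80 (3.54 to 4.09). Gpc3 (0.529 against 3.84 CPM), Fgfr3 (1.27 against 4.29 CPM) and the short receptor Fgfrl1 (17.1 against 43.0 CPM) were lower. Stromal Gpc3 lay far below its AT2-lineage levels given next, and the part of epithelial RNA in its stromal ratio was not tested. In AT2-lineage cells 2 of the 10 tested were called higher and 4 lower, beside 6.74% and 5.27% of all genes. Cd44, the hyaluronan receptor, was at 352 against 94.6 CPM, a ratio of 3.72 (3.50 to 3.96), and in AT1-like cells at 377 against 58.3 CPM, a ratio of 6.46 (5.55 to 7.57). Gpc3, a glypican, was lower in both, at 6.67 against 37.6 CPM and at 1.06 against 15.5 CPM. In DATP-like against AT2-lineage cells 4 of 10 were higher and 1 lower, beside 6.18% and 3.02% of all genes. The 4 included Flrt3, at 34.0 against 1.60 CPM, and Fgfbp1, which frees FGFs from the matrix, at 38.3 against 2.67 CPM. These genes were also higher in control AT1-like than in control AT2-lineage cells, Flrt3 at 147 against 5.02 CPM and Fgfbp1 at 54.1 against 6.41 CPM.

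Of 9 genes that process HGF, 7 had enough UMIs between the compartments, and 6 were called lower and 1 higher in stroma in each library. Of all genes, 15.7% were lower and 21.2% higher in the control library and 23.0% and 14.0% in the IL-1b library. St14 and Hpn, proteases of the cell surface, were at 52.5 and 40.6 CPM in control epithelium and at 2.96 and 2.44 CPM in control stroma, ratios of 0.0563 and 0.0601, beside the 4.58% to 5.55% at which the epithelial markers stood in stroma. Spint2, an inhibitor of such proteases, was at 719 against 41.9 CPM. Plat, a plasminogen activator, was the stromal exception at 21.3 CPM against 1.25 CPM in control epithelium. With IL-1β none of the 5 tested in stroma was called, where 15.9% of all genes were. In AT2-lineage cells 1 of 7 was called higher, beside 6.74% of all genes, namely Plat, at 6.93 against 1.08 CPM, a ratio of 6.41 (3.65 to 12.1), and in AT1-like cells 1 of 5 was called lower, Tmprss2 at 43.3 against 95.8 CPM, beside 4.04% of all genes.

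The 15 adaptors and kinases between receptor and ERK were all tested and mostly stayed within 2-fold. In stroma 1 was called lower with IL-1β, the adaptor Gab1 at 5.82 against 17.7 CPM, and in AT2-lineage cells 1, Hras at 89.6 against 181 CPM, where 11.7% and 5.27% of all genes were lower. Of 16 other ERK targets and feedback genes 15 were tested in stroma, with 2 called higher and 3 lower, beside 4.23% and 11.7% of all genes. The AP-1 component Fosl1 (24.9 against 12.0 CPM) was higher. Il17rd, an FGF receptor antagonist (2.54 against 8.28 CPM), Egr1 (68.3 against 204 CPM) and Etv5 (19.2 against 51.2 CPM) were lower. The called genes of the list thus did not move one way. Its median log2 ratio was 0.06 beside -0.33 for all genes. In AT2-lineage cells 1 of 13 was higher, Egr1 at 51.9 against 19.3 CPM, and 1 lower, Etv5 at 81.4 against 288 CPM, beside 6.74% and 5.27% of all genes. The paper had already reported lower Etv5 with IL-1β, by qPCR of organoid epithelium at an earlier day. It also used low Etv5, among other genes, to class the primed AT2 cells of these organoids. In AT1-like cells 1 of 8 was higher, Phlda1 at 759 against 297 CPM, beside 5.21% of all genes. In DATP-like against AT2-lineage cells 3 of 13 were higher and 2 lower, beside 6.18% and 3.02% of all genes, among them Phlda1 (715 against 224 CPM) and Ier3 (274 against 94.1 CPM) on the higher side and Etv1 (3.22 against 12.3 CPM) and Etv4 (2.87 against 9.33 CPM) on the lower.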

How the data were processed

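Droplet 3′ libraries of PBS and IL-1β organoids were deposited as matrices of UMI counts per gene and cell barcode, with lists of genes and barcodes. The authors aligned reads to GRCm38 with Cell Ranger, while the submitters' processing notes also name mm9 and Scanpy 1.3.6. The study's limits on genes per cell (over 500, under 7000) and on UMIs (over 2000) left 2083 and 3059 cells. A doublet caller with the study's score limits, 0.7 for a cell and 0.6 for a cluster, marked 3 cells (0.0583%). Why it marked so few was not tested, and doublets may remain. Cells were clustered with Scanpy 1.11.5 (50 components, 15 neighbors, Leiden resolution 1.0), split into epithelial and stromal by marker genes and clustered again within each. An epithelial cluster took a class name when its mean marker score reached 0.25 with at least 3 markers above their level in other cells. This limit was set after the clusters were seen. Further rules could withhold a name, such as a cycling name where no cycling marker led the cluster. Of the control cells, 4 immune cells were set aside. UMIs were summed per class and library and divided by the class total. Genes at 0 were set to 3 counts for a ratio. The code was tested on simulated counts. All 10 members are named, and of the other lists up to 4 called genes per comparison by size of the ratio. Members, gene lists and tests were chosen with earlier results of these data known. RefSeq promoter windows were searched for 9 of 10 members, with Spry4 left out. Alternatives covered cell filters, doublets, clustering, scaling and the calling rule.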

Additional observations from a re-analysis of the deposited data

Results flagged for a closer look

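Some members had ratios between the libraries on opposite sides of 1, with intervals that did not include 1, in different cell classes. With 1 library per condition the differences between classes were not tested. Dusp6 had an IL-1b over control ratio of 1.23 in stromal cells, 0.743 in all epithelial cells and 0.643 in AT2-lineage cells. Fgf2 had a ratio of 0.514 in stromal and 1.60 in AT2-lineage cells, the second from 78 and 42 UMIs. The AT2-lineage log2 ratio of Fgf2 lay between 0.29 and 0.71 over 10 alternatives. Over all epithelial cells its log2 ratio was 0.17, and -0.03 without cells holding both marker pairs. The part of stromal RNA in these epithelial Fgf2 values was not tested. Spry4 had a ratio of 0.413 in stromal and 1.65 in AT2-lineage cells. Met had a ratio of 2.32 in AT1-like and 0.914 in AT2-lineage cells. The stromal ratios of Dusp6 lay between -0.13 and 0.62 on the log2 scale over 10 alternatives, with the sign of the main value in 9 of them.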

How the results depend on the processing

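The 8 counts of called members were recomputed under 13 alternatives and 1 added after seeing the data; 86 of the recomputed counts stayed within 1.5 times and 21 did not. In stroma the count of 4 members fell to 2 when centred on the median gene ratio (Hgf and Spry2), and averaging CPM over cells put Spry1 at -0.99, short of 2-fold, for a count of 3. It rose to 5 with no cell filter and with totals lacking surfactant, mitochondrial and ribosomal genes, with Fgf2 added at -1.013 and -1.004, and to 6 at 1.5-fold. In AT1-like cells the count of 1 became 0 at resolutions 0.5 and 2.0 and with seed 1, and 2 with no minimum of UMIs or at 1.5-fold. In epithelial cells it became 0 without cells holding both marker pairs or with a minimum of 200 UMIs, 2 with the totals just named, and 3 at 1.5-fold. In AT2-lineage cells 0 became 1 at resolution 2.0, with those totals or with no minimum, and 4 at 1.5-fold. For DATP-like cells 2 became 1 without the cell filter, at resolution 2.0 or with CPM averaged over cells, 0 at resolution 0.5 or with a minimum of 200 UMIs, and 4 at 1.5-fold. For control AT1-like against AT2-lineage cells 2 became 4 with no minimum. Stromal against epithelial counts stayed within 1.5 times. No called member ratio changed sign under the alternatives in which it was recomputed. Without cells holding both marker pairs, epithelial Hgf had too few UMIs, so its sign was not checked there. The log2 ratio of stromal Hgf stayed between 1.78 and 2.33, and that of stromal Spry2 between -1.63 and -1.17. No paired analysis was possible because each condition has 1 library. At this depth, members with under 50 UMIs in a comparison were not called, and epithelial Hgf could not be told from RNA of stromal cells.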
